A study of Homo sapiens with 6 samples.

Results

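In Bru-seq, cells take up bromouridine for a short time and only RNA made in that time is pulled down and sequenced, which gives a measure of transcription. The 9 genes described here, GAS5, SNHG1, SNHG3, SNHG5, SNHG6, SNHG7, SNHG8, SNHG12 and SNHG15, are noncoding genes that carry small nucleolar RNAs (snoRNAs) in their introns. They were taken by name from the 22984 genes counted on their own strand in each library, and all 9 passed every filter on low values. HCT116, an established human colorectal carcinoma line, was grown in 6 cultures that gave 1 library each, and every culture was labelled with 2 mM bromouridine for 30 min. The cultures were 2 with the vehicle DMSO (0.01%, 4 h), 1 with siRNA against GSTO1 (siGSTO1, 10 nM, 24 h by its sample label), 1 with the GSTO1 inhibitor C1-27 (1 μM) for 4 h, 1 with C1-27 (1 μM) for 24 h and 1 with the inactive analogue C1-14 (10 μM, 4 h). Both 24 h treatments were set against DMSO at 4 h, and siGSTO1 was set against DMSO without siRNA, so effects of time in culture, of transfection and of GSTO1 cannot be told apart. Nothing in the labels says whether the DMSO pair was grown on separate occasions, and its spread may therefore be technical.

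snoRNAs guide the chemical modification of ribosomal and other RNAs. Those with C and D boxes direct ribose methylation and those with H and ACA boxes direct pseudouridylation. In vertebrates most of them are cut out of introns, so transcription of the host gene is also transcription of the snoRNAs. Several noncoding hosts begin with a 5′ terminal oligopyrimidine tract, a C followed by a run of pyrimidines that is typical of genes for ribosomal proteins, and the spliced RNA of GAS5 is a known substrate of nonsense-mediated decay. GAS5 RNA accumulates when growth is arrested and can act as a decoy for the glucocorticoid receptor.

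To show what these introns encode, 6 box C/D snoRNAs are printed 5′ to 3′ as in the GENCODE v29 transcripts, 5 from SNHG1 and 1 from SNHG5. Capitals mark the core of the C box (GATGA) near the 5′ end and the D box (CTGA) near the 3′ end, which proteins of the snoRNA particle bind.
SNORD25: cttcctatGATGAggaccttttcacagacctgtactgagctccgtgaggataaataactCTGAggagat
SNORD26: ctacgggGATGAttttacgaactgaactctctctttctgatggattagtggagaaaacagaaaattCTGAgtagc
SNORD27: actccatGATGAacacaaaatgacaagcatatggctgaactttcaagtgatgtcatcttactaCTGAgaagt
SNORD28: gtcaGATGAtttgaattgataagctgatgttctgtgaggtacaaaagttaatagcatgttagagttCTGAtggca
SNORD30: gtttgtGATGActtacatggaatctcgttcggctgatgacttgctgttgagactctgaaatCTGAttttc
SNORD50B: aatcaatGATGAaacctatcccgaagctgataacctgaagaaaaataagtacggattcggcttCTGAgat

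The promoters of the hosts are shown because 8 of the 9 genes were lowest in the same library. RefSeq (GRCh38.p14) had a promoter for 7 of the 9, and for 5 of these the gene was within 10 bp of the length given in the deposited files. The 50 bases before and the 50 bases from the start are printed for these 5. Capitals mark the first base of the gene and the unbroken pyrimidines that follow a C there.
SNHG1, chr11:62855836-62855935, minus strand: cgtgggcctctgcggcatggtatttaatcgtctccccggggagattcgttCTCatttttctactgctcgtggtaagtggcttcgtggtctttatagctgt
SNHG3, chr1:28505893-28505992, plus strand: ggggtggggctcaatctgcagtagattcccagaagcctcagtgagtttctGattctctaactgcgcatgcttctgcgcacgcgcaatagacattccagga
SNHG5, chr6:85678684-85678783, minus strand: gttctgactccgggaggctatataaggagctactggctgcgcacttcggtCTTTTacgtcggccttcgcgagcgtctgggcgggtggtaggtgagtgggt
SNHG7, chr9:136728135-136728234, minus strand: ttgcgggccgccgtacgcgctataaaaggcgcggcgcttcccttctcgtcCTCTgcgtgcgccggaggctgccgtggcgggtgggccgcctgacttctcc
SNHG8, chr4:118278712-118278811, plus strand: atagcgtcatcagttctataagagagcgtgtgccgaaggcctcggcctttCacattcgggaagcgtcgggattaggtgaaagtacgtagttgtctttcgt

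In these RefSeq models SNHG5 alone of the 5 began with C and at least 4 further pyrimidines, which 4.07% of all 35116 promoters do. SNHG1, SNHG7 and SNHG8 also began with C but had shorter runs, and SNHG3 began with G. Among the RefSeq models left out for their length, that of SNHG12 began with C in a run of 11 pyrimidines, and that of GAS5 began with A. Motifs were searched on both strands over the full window of 250 bases before and 50 after the start. The letters TATAAA, the core of the TATA box, were present in 2 of the 5 (SNHG1 and SNHG7) and in 11.5% of all promoters. In SNHG7 they lay before the start on the strand of the gene. In SNHG1 the match among the printed bases lay after the start on the other strand, so it is not placed as a TATA box. SNHG5 (TATATAAG) and SNHG8 (TATAAGAG) had near matches before the start, which the search did not count. The E-box CACGTG, bound by MYC and USF proteins, was present in SNHG7 and in 7.26% of all promoters. The antioxidant response element core TGACNNNGC, which NRF2 binds, was in none of the 5 and in 13.4% of all promoters. The core TGATGNAA of the ATF4 composite site was in none of the 5 and in 3.62% of all promoters.

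Sense reads came to between 18112861 and 36841146 per library, and the hosts had between 375 reads (SNHG8, siGSTO1) and 11946 reads (SNHG1, C1-27 at 24 h). GSTO1 itself, the gene aimed at by the siRNA, had 3.51 and 3.72 RPKM in DMSO, 2.70 in siGSTO1, 3.78 and 4.21 in C1-27 at 4 h and 24 h, and 3.82 in C1-14. Its nascent RNA was lowest in the siGSTO1 library, without passing the test (edgeR log2 fold change −0.53 ± 0.27 SE, adjusted p = 0.330). Nascent RNA does not measure mature GSTO1 RNA or protein, so this value is not a measure of the knockdown. The paper reports loss of GSTO1 protein after siRNA, at other doses and later times. The epithelial markers EPCAM, KRT8, KRT18 and CDH1 were read in every library, CDH1 at only 0.321 to 0.617 RPKM. Summed within each type, the RPKM of leukocyte, of fibroblast and of endothelial markers stayed at or below 0.377 in every library. VIL1 and LGALS4, markers of intestinal epithelium, were near 0.

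Levels are given in RPKM, the authors' reads per unit of gene length and of mapped reads, so they can be compared between genes. In DMSO all 9 hosts were among the most transcribed genes, at percentiles 99.1 to 99.9 of genes above 300 bp. SNHG1 had 77.8 ± 1.83 RPKM (SD, n = 2) and GAS5 72.3 ± 1.81. SNHG3 followed with 60.9 ± 4.90 and SNHG5 with 49.9 ± 8.82. The next were SNHG6 with 29.1 ± 2.22, SNHG12 with 24.3 ± 2.69 and SNHG8 with 20.6 ± 2.77. SNHG7 and SNHG15 were lowest, with 11.8 ± 2.27 and 11.8 ± 0.164 RPKM. In this order the DMSO values of SNHG12 and SNHG8 overlapped, as did those of SNHG7 and SNHG15, and the other neighbours did not overlap.

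The DMSO pair gives the only spread between cultures. The ratio of culture 2 to culture 1 was closest to 1 for SNHG15 (1.02), SNHG1 (1.03) and GAS5 (1.04). It was 0.892 for SNHG3, 1.11 for SNHG6, 0.855 for SNHG12 and 1.21 for SNHG8. SNHG5 (0.778) and SNHG7 (0.760) differed most, and both were higher in culture 1. None of the 9 reached 1.4-fold between the DMSO cultures, where 2.84% of 7825 genes were higher and 16.3% were lower in culture 2.

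**Figure D1:**
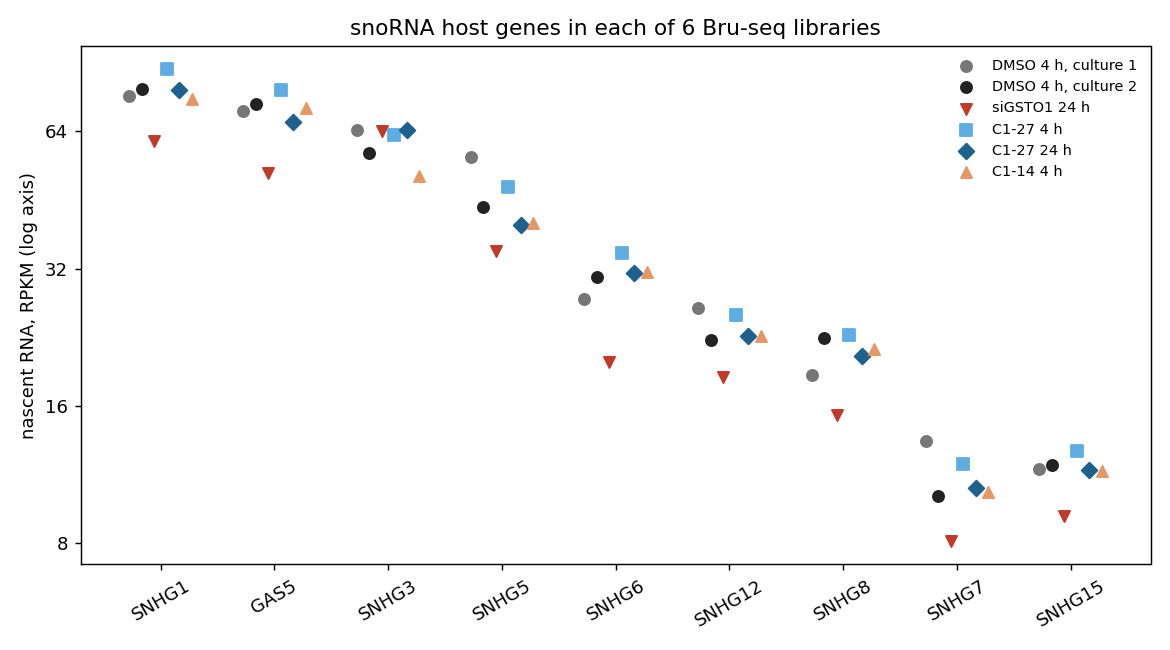
RPKM of each host gene (log axis) in the 6 libraries, 1 symbol per library, genes ordered by their DMSO mean. The siGSTO1 symbol is the lowest of the 6 for every gene except SNHG3, where C1-14 is lowest.

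The comparison of siGSTO1 with DMSO asked how transcription responds to loss of GSTO1. In it 8 of the 9 hosts lay below both DMSO cultures, as 34.2% of 8138 genes and 21.6% of the 925 genes of at most 5000 bp did. SNHG3 lay between them, and 0 lay above both, against 35.2% of all genes. These 8 were also at their lowest of all 6 libraries in siGSTO1. That held for 29.0% of the 8138 genes and for 16.2% of the 925 short genes, the size range of the hosts. Short genes were shifted further between the DMSO cultures. Their median log2 ratio of culture 2 to culture 1 was −0.36, against 0.03 for the hosts, which ran from −0.40 to 0.27. The short genes match the hosts in size but not in this shift, so their shares outside both cultures are not a like baseline. By the size rule of 1.4-fold, 3 of the 9 were lower (SNHG5, SNHG6 and SNHG7), against 6.48% of all and 8.43% of short genes, and 0 were higher, against 10.5%. The median log2 fold change of RPKM was −0.43 for the hosts, 0.00 for all 8138 genes and 0.12 for the short genes.

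None of the 9 passed the test, edgeR's quasi-likelihood test with Benjamini-Hochberg adjustment over 14431 genes, which called 1.16% of them lower and 3.0% higher. At an unadjusted p under 0.05 it had 5 of the 9, all lower (GAS5, SNHG5, SNHG6, SNHG7 and SNHG12), where 5.19% of all genes were lower, and DESeq2 had 4 of the 9, all lower, against 4.34% of all genes, and 0 after adjustment. For DESeq2 the share of all genes passing after adjustment is not given here. The edgeR fit takes its spread from the DMSO pair, with 1 residual degree of freedom, and assumes that the single treated cultures vary likewise. That spread was pooled fully over genes (infinite prior degrees of freedom), so SEs and intervals do not reflect each gene's own DMSO spread. In simulated counts at the fitted dispersion (0.038), 21 of 200 planted 2-fold changes passed in this comparison. A missing call therefore says little about the smaller changes of the hosts.

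GAS5 (hg19 chr1:173833039-173837125, minus strand, 12 exons) had 71.1 and 73.6 RPKM in DMSO, 51.8 in siGSTO1, 78.9 and 67.1 in C1-27 at 4 h and 24 h and 72.0 in C1-14. The siGSTO1 value stood below the other 5, which spanned 67.1 to 78.9. Its ratio to the DMSO mean was 0.716, and the ratios to the single cultures were 0.729 and 0.703. The edgeR log2 fold change was −0.60 ± 0.27 SE (95% interval −1.12 to −0.07, adjusted p = 0.249). Pooled DMSO reads gave a ratio of 0.712 with an exact (Clopper-Pearson) 95% interval of 0.689 to 0.736, which covers counting error only.

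SNHG1 (hg19 chr11:62619460-62623360, minus strand, 11 exons), host of SNORD22 and SNORD25 to SNORD31, had 76.5 and 79.1 RPKM in DMSO, 61.0 in siGSTO1, 87.5 and 79.1 in C1-27 at 4 h and 24 h and 75.5 in C1-14. As for GAS5, siGSTO1 was lowest and C1-27 at 4 h highest. The ratio to DMSO in siGSTO1 was 0.784, and the edgeR log2 fold change was −0.47 ± 0.27 SE (adjusted p = 0.449).

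SNHG6 (hg19 chr8:67834165-67837777, minus strand, 4 exons), host of SNORD87, had 27.5 and 30.7 RPKM in DMSO, 20.0 in siGSTO1, 34.6 and 31.3 in C1-27 at 4 h and 24 h and 31.5 in C1-14. The 3 compound libraries were all above both DMSO cultures and siGSTO1 was below both. Its ratio in siGSTO1 was 0.688, and the edgeR log2 fold change of −0.65 ± 0.25 SE had the smallest adjusted p of the 9 (0.131).

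SNHG5 (hg19 chr6:86386725-86388451, minus strand, 6 exons), host of SNORD50A and SNORD50B, had 56.1 and 43.7 RPKM in DMSO, 35.0 in siGSTO1, 48.3 and 40.0 in C1-27 at 4 h and 24 h and 40.4 in C1-14. DMSO culture 1 was the highest library, and siGSTO1, C1-27 at 24 h and C1-14 were all below both DMSO cultures. In siGSTO1 the ratio was 0.701, or 0.623 and 0.801 against the single DMSO cultures, with an edgeR log2 fold change of −0.62 ± 0.25 SE (adjusted p = 0.172).

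SNHG7 (hg19 chr9:139619046-139622636, minus strand, 3 exons) had 13.4 and 10.2 RPKM in DMSO, 8.10 in siGSTO1, 11.96 and 10.6 in C1-27 at 4 h and 24 h and 10.4 in C1-14. The compound libraries all lay between the DMSO cultures and siGSTO1 lay below them. The siGSTO1 ratio was 0.688, or 0.605 and 0.796 against the single DMSO cultures, with an edgeR log2 fold change of −0.65 ± 0.29 SE (adjusted p = 0.228).

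SNHG12 (hg19 chr1:28905050-28908366, minus strand, 6 exons), host of SNORD99 and 3 box H/ACA snoRNAs, had 26.2 and 22.4 RPKM in DMSO, 18.5 in siGSTO1, 25.3 and 22.8 in C1-27 at 4 h and 24 h and 22.7 in C1-14. Here too the compound libraries lay within the DMSO pair. The siGSTO1 ratio was 0.761, and the edgeR log2 fold change was −0.50 ± 0.25 SE (adjusted p = 0.340).

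SNHG8 (hg19 chr4:119199917-119200978, plus strand, 3 exons), host of SNORA24 and the shortest of the 9, had 18.7 and 22.6 RPKM in DMSO, 15.3 in siGSTO1, 23.0 and 20.6 in C1-27 at 4 h and 24 h and 21.3 in C1-14. Its siGSTO1 value rested on 375 reads, the fewest of any host. The ratio was 0.742, and the edgeR log2 fold change was −0.55 ± 0.34 SE (adjusted p = 0.494).

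SNHG15 (hg19 chr7:45022627-45026259, minus strand, 5 exons), host of SNORA9, had 11.7 and 11.9 RPKM in DMSO, 9.18 in siGSTO1, 12.8 and 11.6 in C1-27 at 4 h and 24 h and 11.5 in C1-14. All libraries but siGSTO1 fell between 11.5 and 12.8. The siGSTO1 ratio was 0.779, and the edgeR log2 fold change was −0.47 ± 0.27 SE (adjusted p = 0.449).

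SNHG3 (counted row at hg19 chr1:28832732-28837404, plus strand, 4 exons), which hosts the H/ACA snoRNAs SNORA73A and SNORA73B, was the exception. It had 64.3 and 57.4 RPKM in DMSO, 64.3 in siGSTO1, 62.9 and 64.4 in C1-27 at 4 h and 24 h and 51.1 in C1-14. C1-14 lay below both DMSO cultures. C1-27 at 24 h lay just above both (64.4 against 64.32 in culture 1), and siGSTO1 and C1-27 at 4 h lay between them. The siGSTO1 ratio was 1.06, whereas the edgeR log2 fold change after TMM scaling was −0.03 ± 0.25 SE (adjusted p = 0.984), so its sign depends on the scaling. The row of SNHG3 adjoins that of RCC1 on the same strand and spans 4673 bp, 277 bp less than the gene size of 4950 bp in the files, so its ends may not be those of the gene. Reads were counted over 2095 bp (42.3% of the gene size), the smallest share of the 9.

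**Figure D2:**
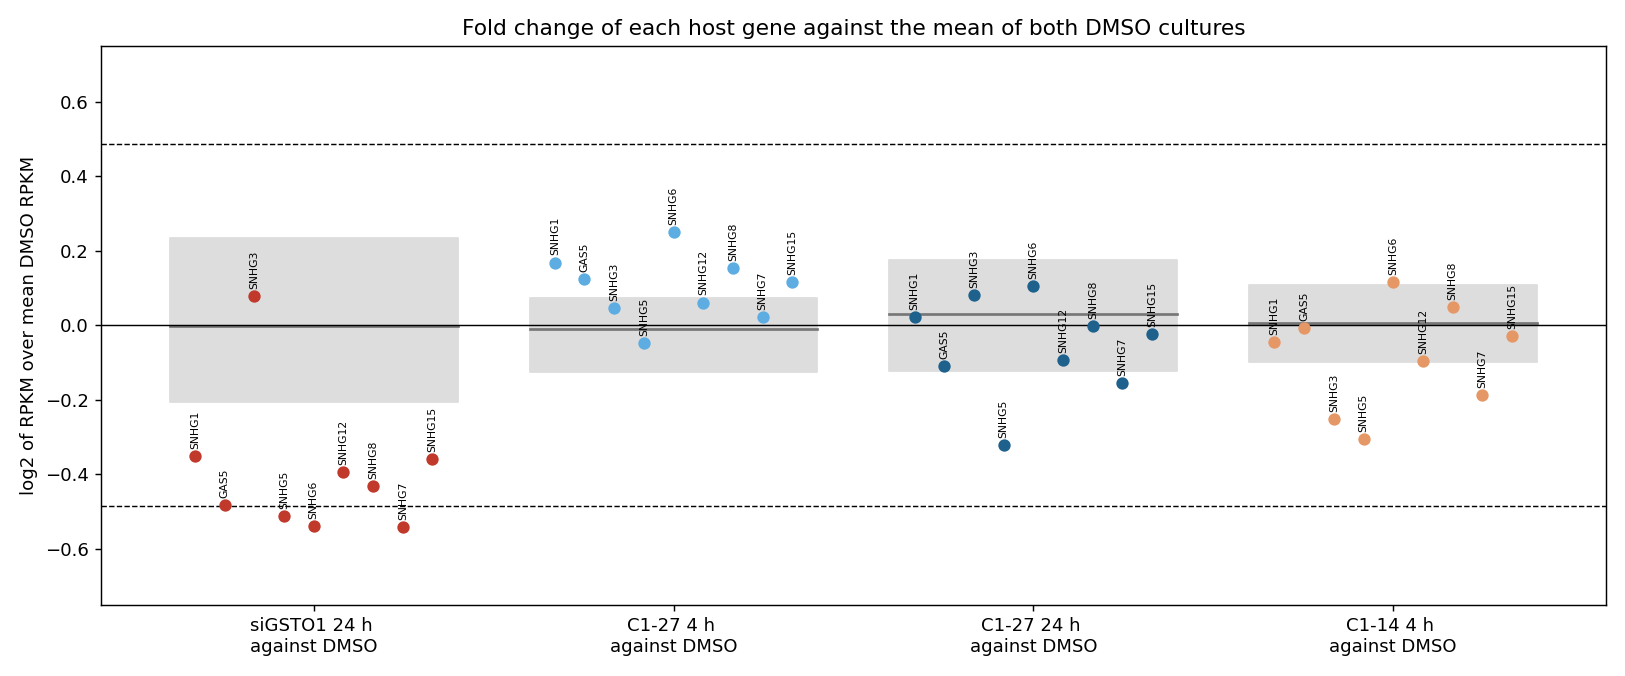
Log2 ratio of RPKM to the mean of both DMSO cultures for each host gene in 4 treatments, in the same gene order within each. Grey boxes span the quartiles of all genes above 300 bp and 0.5 RPKM with their median as a line, and dashed lines mark 1.4-fold. In siGSTO1 8 of the 9 points lie below the lower quartile of −0.20, and no point passes 1.4-fold with C1-27 or C1-14.

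At 1.4-fold, which is a ratio of 0.714 in the lower direction, SNHG5 with 0.701 was the member just inside and GAS5 with 0.716 the member just outside. Which hosts passed depended on the control culture. Against DMSO culture 1 alone they were SNHG5, SNHG7 and SNHG12, and against culture 2 alone they were GAS5, SNHG6 and SNHG8, so none of the 9 was past 1.4-fold against each culture by itself. The number also depended on the scaling. After rescaling by TMM factors 6 of the 9 were past 1.4-fold, all lower, where 11.2% of all genes were lower and 7.14% higher. After rescaling by DESeq2 size factors 8 were, all lower, where 13.6% of all genes were lower and 6.4% higher. The median of all genes moved from 0.00 to −0.11 and −0.15 on the log2 scale under these factors. The same count of 8 hosts was lowest in siGSTO1 under both, where 41.3% and 44.1% of all genes were lowest in that library.

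C1-27 at 1 μM for 4 h asked what the inhibitor does early. Against DMSO no host was called and none reached 1.4-fold, where 0.457% of 7667 genes were higher and 2.22% lower. The log2 fold changes of RPKM ran from −0.05 (SNHG5) to 0.25 (SNHG6), with a median of 0.12 for the hosts and −0.01 for all genes. GAS5, SNHG1, SNHG6, SNHG8 and SNHG15 lay above both DMSO cultures, 5 of 9 against 21.6% of all and 14.0% of short genes, and none lay below both, against 18.9% of all genes. The same 5 were at their highest of the 6 libraries there, against 7.43% of all and 4.43% of short genes. Here too the short genes are not a like baseline, because of their shift between the DMSO cultures. For GAS5 the edgeR log2 fold change was 0.15 with a 95% interval of −0.36 to 0.66. The adjusted p was 0.9999 for every host in edgeR's quasi-likelihood test, which called 0.0139% of genes higher and 0.0% lower.

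At 24 h of C1-27 the hosts were near DMSO, with log2 fold changes of RPKM from −0.32 (SNHG5) to 0.11 (SNHG6) and a median of −0.02, against 0.03 for all genes. GAS5, SNHG5 and SNHG15 lay below both DMSO cultures, 3 of 9 against 21.5% of all genes, and SNHG3 and SNHG6 lay above both, 2 of 9 against 36.8%. None of the 9 was past 1.4-fold (3.23% of genes higher, 3.49% lower) or called by edgeR (0.159% higher, 0.118% lower). SNHG5 had a ratio of 0.801, and with DMSO culture 1 alone as the control, its ratio was 0.712 and past 1.4-fold.

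C1-27 was given at the same dose for 4 h and 24 h, and from the first to the second the edgeR log2 fold changes of all 9 hosts were below 0, from −0.35 (SNHG5) to −0.04 (SNHG3), with a median of −0.23 against 0.03 for all genes. In RPKM as deposited 8 of the 9 were lower at 24 h, and SNHG3 had 64.4 against 62.9. None was called (edgeR adjusted p = 1.0 for each, 0.0416% of genes higher and 0.0624% lower), and none had an unadjusted p under 0.05. For GAS5 the 95% interval of the edgeR log2 difference was −0.91 to 0.28. With no DMSO culture at 24 h, effects of longer exposure and of time in culture cannot be told apart here.

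With C1-14, the inactive analogue given at 10 μM for 4 h, 0 of the 9 were called (edgeR, 0.111% of genes higher and 0.00693% lower) and 0 were past 1.4-fold (3.71% higher and 1.01% lower). SNHG1, SNHG3, SNHG5 and SNHG15 lay below both DMSO cultures, 4 of 9 against 21.6% of all genes, and SNHG6 lay above both, 1 of 9 against 27.2%. The log2 fold changes of RPKM ran from −0.30 (SNHG5) to 0.12 (SNHG6). The doses of C1-27 and C1-14 differ, so their values are given side by side without a test. At 4 h the ratios to DMSO were 1.09 and 0.995 for GAS5, 1.12 and 0.970 for SNHG1, 1.19 and 1.08 for SNHG6, and 1.03 and 0.840 for SNHG3, with C1-27 first.

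The siRNA and the inhibitor, both aimed at GSTO1, were compared directly at 24 h. All 9 hosts had an edgeR log2 fold change below 0 in siGSTO1 relative to C1-27, from −0.71 (SNHG6) to −0.06 (SNHG3), with a median of −0.43 against 0.01 for all genes. SNHG6 had 20.0 RPKM in siGSTO1 and 31.3 in C1-27, an edgeR log2 difference of −0.71 ± 0.28 SE (adjusted p = 0.391), and was the 1 host with an unadjusted p under 0.05, where 1.97% of genes were lower. None was called, where 0.236% of genes were lower and 0.755% higher. For GAS5 the 95% interval was −1.03 to 0.16.

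The snoRNAs have rows of their own in the files, and their bodies are left out of the counted length of the host. The 27 snoRNA rows inside 7 of the hosts are therefore a count on separate bases of the same primary transcripts. No such row lay wholly inside SNHG3 or SNHG7 on its strand, so these hosts lack that count. All 27 rows are below the minimum gene size of 300 bp and were therefore not in the test across genes. Their summed level was 58.2 and 54.1 RPKM in DMSO, 40.3 in siGSTO1, 58.4 and 50.5 in C1-27 at 4 h and 24 h and 49.6 in C1-14. In siGSTO1 24 of the 27 lay below both DMSO cultures, as did 46.2% of the 169 other snoRNA rows with at least 10 reads in at least 2 libraries, and the median ratio to DMSO was 0.736 inside the hosts and 0.854 outside. The 3 that did not were SNORD74 in GAS5, SNORA24 in SNHG8 and SNORA16A in SNHG12, each of which differed widely between the DMSO cultures. Rows of the same host share its transcript and are not replicates.

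Within GAS5 the 10 snoRNA rows together had 78.3 and 76.4 RPKM in DMSO, 54.1 in siGSTO1, 86.6 and 68.7 in C1-27 at 4 h and 24 h and 71.0 in C1-14. The siGSTO1 ratio of 0.699 stood beside 0.716 for GAS5 outside the snoRNAs. Single rows ranged from 0.516 (SNORD79) to 0.869 (SNORD47), and SNORD76 had the highest level, 150.2 and 149.6 RPKM in DMSO and 99.5 in siGSTO1. In DMSO it was 2.07 times the level of its host.

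In SNHG1 the 8 snoRNA rows together had 82.5 and 77.6 RPKM in DMSO and 60.2 in siGSTO1, a ratio of 0.753, and all 8 lay below both DMSO cultures. SNORD29 was highest with 163.4 and 133.9 RPKM in DMSO and 87.2 in siGSTO1, a ratio of 0.587. SNORD25, the first in the gene, was lowest with 31.5 in both DMSO cultures and 26.4 in siGSTO1, a ratio of 0.838. In SNHG5 SNORD50B had 50.8 and 68.4 RPKM in DMSO and 23.6 in siGSTO1, the lowest ratio of the 27 (0.395), on 84.3, 198.0 and 43.9 reads. SNORD50A in the same gene had 27.8 and 32.8 RPKM in DMSO and 27.2 in siGSTO1, a ratio of 0.897.

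**Figure D3:**
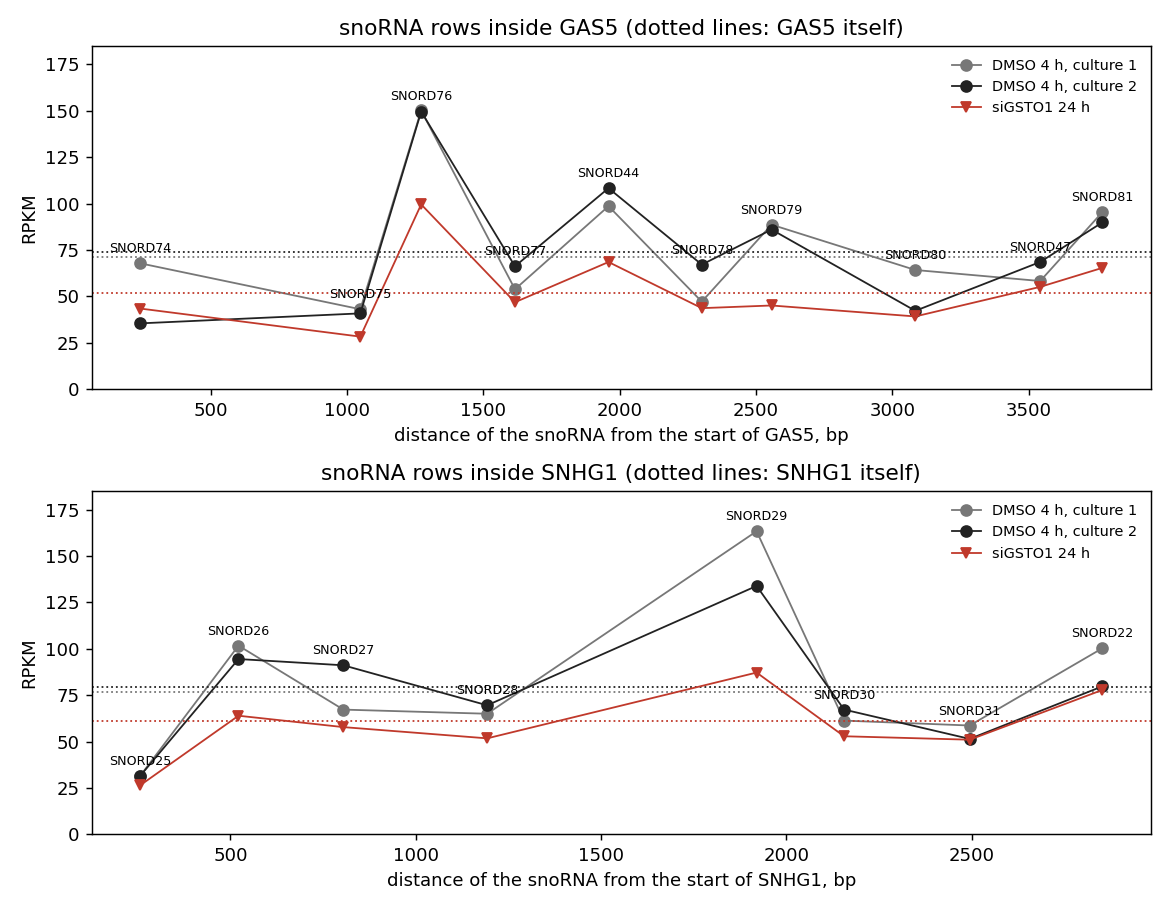
RPKM of each snoRNA row in GAS5 (top) and SNHG1 (bottom) against its distance in bp from the start of the host, in both DMSO libraries and siGSTO1, with the host's own RPKM as dotted lines. The siGSTO1 points lie below both DMSO points for 9 of the 10 rows in GAS5 and for all 8 in SNHG1.

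Only 2 hosts had a gene starting on the other strand within 2000 bp of their own start. ZBTB37 starts 368 bp from GAS5 and had 0.642 and 0.534 RPKM in DMSO and 0.410 in siGSTO1. Its siGSTO1 ratio was 0.698 (edgeR adjusted p = 0.530), close to that of GAS5, at a level that GAS5 exceeded 123.0 times in DMSO. SLC3A2, which encodes the heavy chain of several amino acid transporters, starts 124 bp from SNHG1. It had 4.87 and 3.49 RPKM in DMSO and 4.30 in siGSTO1, a ratio of 1.03 (edgeR adjusted p = 0.958), beside 0.784 for SNHG1. Antisense reads made up at most 4.84% of the sense and antisense reads of a host (SNHG7) in any library.

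Related genes were counted from lists chosen with earlier results of these data known. The snoRNP list shares NOP56 and DKC1 with the list of protein-coding hosts. In siGSTO1 against DMSO edgeR called none in any list, beside the shares of all genes given above for that comparison. Of 15 other noncoding snoRNA hosts 6 were in the files, with 5 edgeR log2 fold changes below 0 and a median of −0.24, beside 0.02 for all 14431 genes and −0.55 for the 9 hosts. Of 39 protein-coding hosts, mostly genes for ribosomal proteins and translation or ribosome assembly factors, 20 were below 0, with a median of −0.02. Of 18 snoRNP proteins and assembly factors 14 were below 0, with a median of −0.42, and of 15 nonsense-mediated decay factors 12 were, with a median of −0.25. The share of all genes below 0 is not given here, so the median of all genes is the only baseline for these counts. The only call in a list in any of the 6 comparisons was RPL7A, a ribosomal protein gene that hosts snoRNAs, with 36.0 RPKM in siGSTO1 and 16.8 in C1-27 at 24 h (edgeR log2 difference 1.04 ± 0.29 SE, adjusted p = 0.0332). RPL7A also differed between the DMSO cultures, with 29.8 and 14.9 RPKM.

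**Figure D4:**
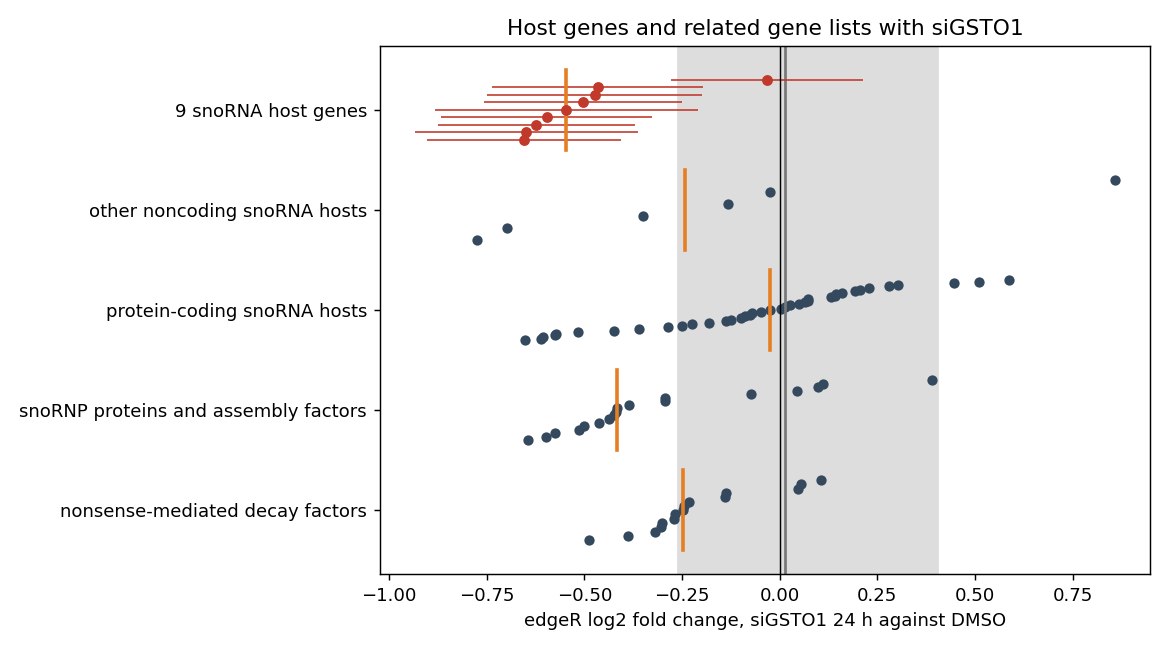
edgeR log2 fold change of siGSTO1 against DMSO for the 9 hosts (red, bars are SE) and the genes of 4 related lists (1 point per gene), with orange lines at each list's median. The grey band spans the quartiles of all 14431 genes and the grey line their median. The hosts' median is −0.55 and that of the protein-coding hosts −0.02.

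The genes whose levels followed GAS5 most closely over the 6 libraries, by Pearson's r of log2 RPKM among 7111 genes, were NCAPG2 (0.998), PCID2 (0.998), YRDC (0.997), UBA2 (0.996) and MATR3 (0.995). NCAPG2 had 3.02 and 3.14 RPKM in DMSO, 2.25 in siGSTO1, 3.33 and 2.85 in C1-27 at 4 h and 24 h and 3.12 in C1-14, the same order of libraries as GAS5. Of the other hosts SNHG15 was most like GAS5 (r = 0.984, rank 33), followed by SNHG1 (0.950, rank 221), SNHG6 (0.938) and SNHG8 (0.927). SNHG12, SNHG7 and SNHG5 had r of 0.862, 0.778 and 0.690, and SNHG3 had −0.332. These values share 6 libraries and their scaling and are given as a description.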

How the data were processed

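Nascent RNA of 6 HCT116 cultures was analysed. The authors deposited, per library and gene, expected counts (estimated counts of reads over exons and introns by strand, not normalized and often not whole), a signal (that count per counted bp, not used in tests) and RPKM (per counted length and mapped reads). The submitters' processing notes name CASAVA 1.8.2, Bowtie 0.12.8, TopHat 1.4.1, bedtools 2.16.2 and the build hg19. Ratios divide the treated RPKM by the mean DMSO RPKM with no pseudocount. They were counted at 1.4-fold among genes larger than 300 bp whose mean RPKM exceeded 0.5. Counts were rounded, and genes larger than 300 bp that reached 10 counts in 2 or more libraries were tested with edgeR 4.0.16 in R 4.3.3 (5 groups, TMM, quasi-likelihood test, Benjamini-Hochberg, adjusted p under 0.05, SE from the log2 fold change and its F statistic). DESeq2 1.42.0 was an alternative. The siGSTO1 test was also run on simulated counts. At the fitted dispersion of 0.038, 21 of 200 planted 2-fold changes and 189 of 200 planted 4-fold changes passed. At a dispersion of 0.01 they were 185 and 200. Python 3.11.15, numpy 2.4.6, pandas 2.3.3, scipy 1.17.1 and matplotlib 3.10.9 did the rest.

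The genes named are all 9 hosts, the targeted gene, genes starting on the other strand within 2000 bp, snoRNA rows inside the hosts, the 5 genes most like GAS5 and any list member that edgeR called. Members and lists were chosen with earlier results of these data known. GENCODE v29 and RefSeq (GRCh38) gave sequences and no converted positions. SNHG20 and DANCR were found under the older symbols LINC00338 and SNHG13.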

Additional observations from a re-analysis of the deposited data

How the results depend on the processing

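No host was called by edgeR under DESeq2 size factors, without the count filter, with only the treated and DMSO libraries, or with robust dispersions (chosen after seeing the data), nor by DESeq2. The shares of all genes called under these settings are not given here, so these missing calls have no background beside them. Over these settings the adjusted p in siGSTO1 ran from 0.0977 to 0.327 for SNHG6 and from 0.233 to 0.439 for GAS5. The number of hosts past 1.4-fold in siGSTO1 was 3 as deposited, 6 with TMM rescaling and 8 with DESeq2 size factor rescaling, where 6.48%, 11.2% and 13.6% of all genes were lower by as much, since these factors lower every ratio of that library. Of 180 values of single hosts under the alternatives, 161 moved by less than the spread of the DMSO pair and 19 by more. The sign changed in 20 of them, 3 in siGSTO1 (all SNHG3), 5 and 6 with C1-27 at 4 h and 24 h and 6 with C1-14, all for hosts whose log2 ratio was at most 0.19 from 0 as deposited and that had no call. The number past 1.4-fold with C1-27 at 24 h ran from 0.0 to 1 (SNHG5) when a DMSO culture was left out, and it stayed at 3 in siGSTO1, with other hosts in each case. Leaving out a DMSO culture leaves no residual degree of freedom, so only ratios were recomputed. No paired analysis was possible because only the DMSO group has more than 1 culture. With 1 culture per treatment, no ratio has a replicate check of its own.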
